A study of Homo sapiens with 10 samples.

Results

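The aldehyde dehydrogenases (ALDH), aldo-keto reductases (AKR) and glutathione S-transferases (GST and the microsomal MGST) were examined in 5 BRAF-mutant melanoma cell lines and their drug-resistant derivatives. The genes were chosen by a rule on symbols among 57955 listed genes, with earlier results of these data known. The rule took ALDH, AKR and MGST genes, and GST genes of the alpha, mu, theta, omega, zeta, kappa or pi class. It missed some relatives whose symbols are built otherwise, such as ALDH2 and GSTT2B. Family totals and counts leave these relatives out. The rule gave 49 enzymes, of which 18 are ALDH, 12 AKR and 19 GST or MGST genes. Of these, 41 had at least 20 counts in at least 1 library and are described, and 8 did not (ALDH3B2, ALDH8A1, AKR1D1, GSTA1, GSTA2, GSTA3, GSTA5 and GSTM5). The lines were WM983A, WM278 and WM902B from primary tumours and WM983B and WM1617 from metastases. Each was sequenced once as the original line, sensitive to the BRAF inhibitor encorafenib and the MEK inhibitor binimetinib, and once as the line made resistant to both. Resistant cells had been selected over 3 to 5 months in both drugs, with doses that began at 1 nM and ended at 200 nM, and they were then kept at 200 nM, whereas sensitive cells had no drug. Resistance and the presence of drug therefore cannot be told apart. According to the study's list of lines, WM983A and WM983B came from the same patient and so did WM278 and WM1617. With 1 library per line and state, the 5 lines served as replicates, not all of them independent, and p-values measure the spread between lines.

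These enzymes remove reactive molecules. ALDH enzymes oxidise aldehydes to acids, AKR enzymes reduce aldehydes and ketones to alcohols with NADPH, and GST enzymes join glutathione to electrophilic compounds. Many of their genes carry antioxidant response elements, the sites bound by the transcription factor NRF2, which is kept low by KEAP1. In melanoma, ALDH1A1 and ALDH1A3, which turn retinal into retinoic acid, are the best known members.

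Levels are given as normalized counts, that is, expected counts per gene (read numbers that may hold fractions) divided by a scale factor of the library (TMM). Unless stated otherwise, lists of 5 values follow the order WM983A, WM983B, WM278, WM1617 and WM902B. The libraries held 13693922 to 18033247 counts, so depth differed little. The resistant WM983A library stood apart: across 17288 genes its log2 levels had a Pearson's r of 0.787 with the sensitive WM983A library and of 0.813 with sensitive WM902B cells. In the other 4 lines the resistant library lay closest to its own parent (r of 0.868 to 0.976). Many results that rest on the resistant WM983A library are given with and without it. In bulk libraries, fewer cells of a type and less RNA per cell cannot be told apart.

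The enzymes took a much larger part of all counts in the resistant state of 1 line, WM983A. The 49 enzymes took 3866 CPM (counts after each library is set to the same total) of the sensitive WM983A library and 12725 of the resistant one, a ratio of 3.29. In the other lines the ratio lay between 0.808 in WM983B and 1.33 in WM902B. The AKR genes made up most of the gain, with 412 CPM in sensitive and 7756 in resistant WM983A cells. They also took a larger share in each of the other resistant lines, from 1.25 times in WM1617 to 2.58 times in WM902B. The ALDH share was lower in resistant WM983B (0.609 times) and WM278 cells (0.701 times), and the GST and MGST share stayed between 0.873 and 1.39 times its sensitive value in all 5 lines. With 1 library per line and state, these ratios have no test.

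**Figure D1:**
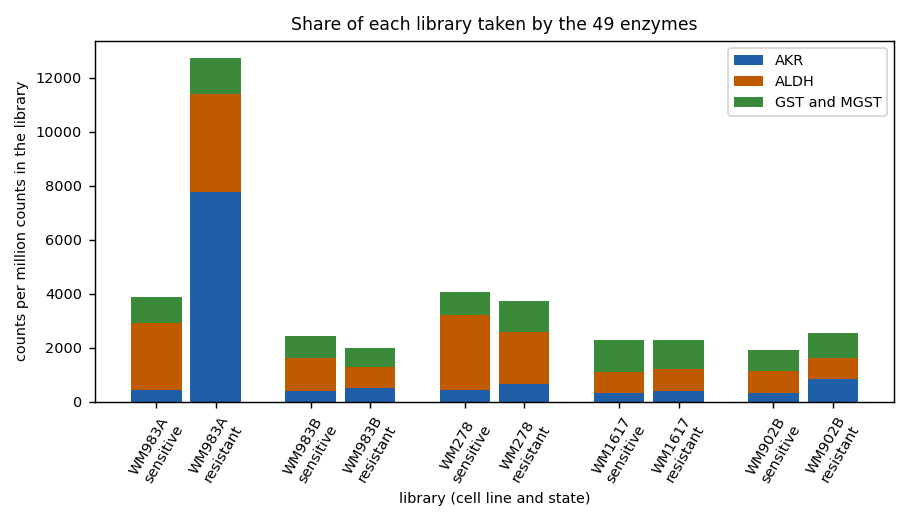
Share of each library, in CPM, taken by the AKR (blue), ALDH (orange) and GST or MGST genes (green) in each of the 10 libraries, stacked, with the cell line and state on the horizontal axis. The resistant WM983A bar reaches 12725, mostly AKR, and the other 9 bars lie between 1915 and 4065.

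The 5 resistant and the 5 sensitive libraries were first compared over all genes with edgeR's quasi-likelihood test, which asks whether a gene differs between the states across lines. Of the 41 described enzymes 37 passed the filter on low counts. ALDH3A1, ALDH1L1, AKR1C4 and AKR7A3 did not. Of these, ALDH3A1 and ALDH1L1 were compared only by exact permutation, and AKR1C4 and AKR7A3 are given no test of their own. With an unadjusted p no higher than 0.05 and a change of 2-fold or more, 9 enzymes were higher in the resistant lines and 0 were lower, against 3.53% of the 17288 genes tested that were higher and 0.885% that were lower (4.41% in either direction). They were AKR1B1, AKR1B10, AKR1B15, AKR1C1, AKR1C2, AKR1C3, ALDH3B1, ALDH6A1 and GSTA4. None of the 17288 genes (0%) passed after Benjamini-Hochberg adjustment in edgeR's test, and the smallest adjusted p among the enzymes was 0.630. With DESeq2's Wald test 5 of the enzymes were called before adjustment, all higher, against 4.04% of genes, and 0 after it, against 0.613% in either direction. The median log2 fold change over the 37 enzymes was 0.22, beside 0.03 over all genes tested. It was 4.74 over the 9 AKR genes tested, 0.08 over the 14 ALDH genes and 0.20 over the 14 GST and MGST genes. When edgeR compared each resistant line with its own parent, these family medians were 2.35, -0.02 and 0.06. Family medians without the resistant WM983A library were not computed.

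How many enzymes were called depended on WM983A and on whether the lines were paired. With the cell line as a replicate block, which compares each resistant line with its own parent, 5 enzymes were called (AKR1B1, AKR1C3, ALDH3B1, ALDH6A1 and GSTA4), all higher, against 3.49% of all genes, and 0 were lower, against 2.05%. After adjustment 0 remained in edgeR's test, and with DESeq2 and the block AKR1C2 and ALDH3B1 passed, against 1.56% of genes that were higher. Without both WM983A libraries 2 enzymes were called by edgeR (ALDH6A1 and GSTA4, against 2.71% of genes). Without the resistant WM983A library alone the same 2 were higher, against 3.31%, and ALDH1A1 was lower, against 0.895%. With the block and without both WM983A libraries 7 were called (AKR1B15, AKR1C1, AKR1C2, AKR1C3, ALDH3B1, ALDH6A1 and GSTA4), against 3.86% of genes. Without both WM902B libraries the count was 4 (AKR1B10, AKR1B15, AKR1C2 and ALDH6A1), against 1.9%. Without those of WM983B edgeR called 7 higher, against 1.96%, with AKR1C1, AKR1C3 and GSTA4 lost and ALDH3A2 gained. Without those of WM278 it called 6 higher, against 3.73%, with ALDH3B1, ALDH6A1 and GSTA4 lost, and ALDH1A3 lower, against 1.13%. Without those of WM1617 all 9 were called, against 5.73%. In none of the 41 enzymes did the levels of the 5 resistant lines lie entirely above or below those of the 5 sensitive lines, as they did in 0.442% (higher) and 0.31% (lower) of the 19666 genes with at least 20 counts in a library. By exact two-sided permutation of the 5 against 5 libraries, whose smallest possible p is 0.00794, ALDH6A1, AKR1B1 and GSTO1 had a p of at most 0.05, as did 6.13% of those genes. This permutation ignored the pairing of resistant lines with their parents and the patients that lines share. AKR1C4 and AKR7A3 are left out there, because each reached 20 counts only in a resistant library.

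**Figure D2:**
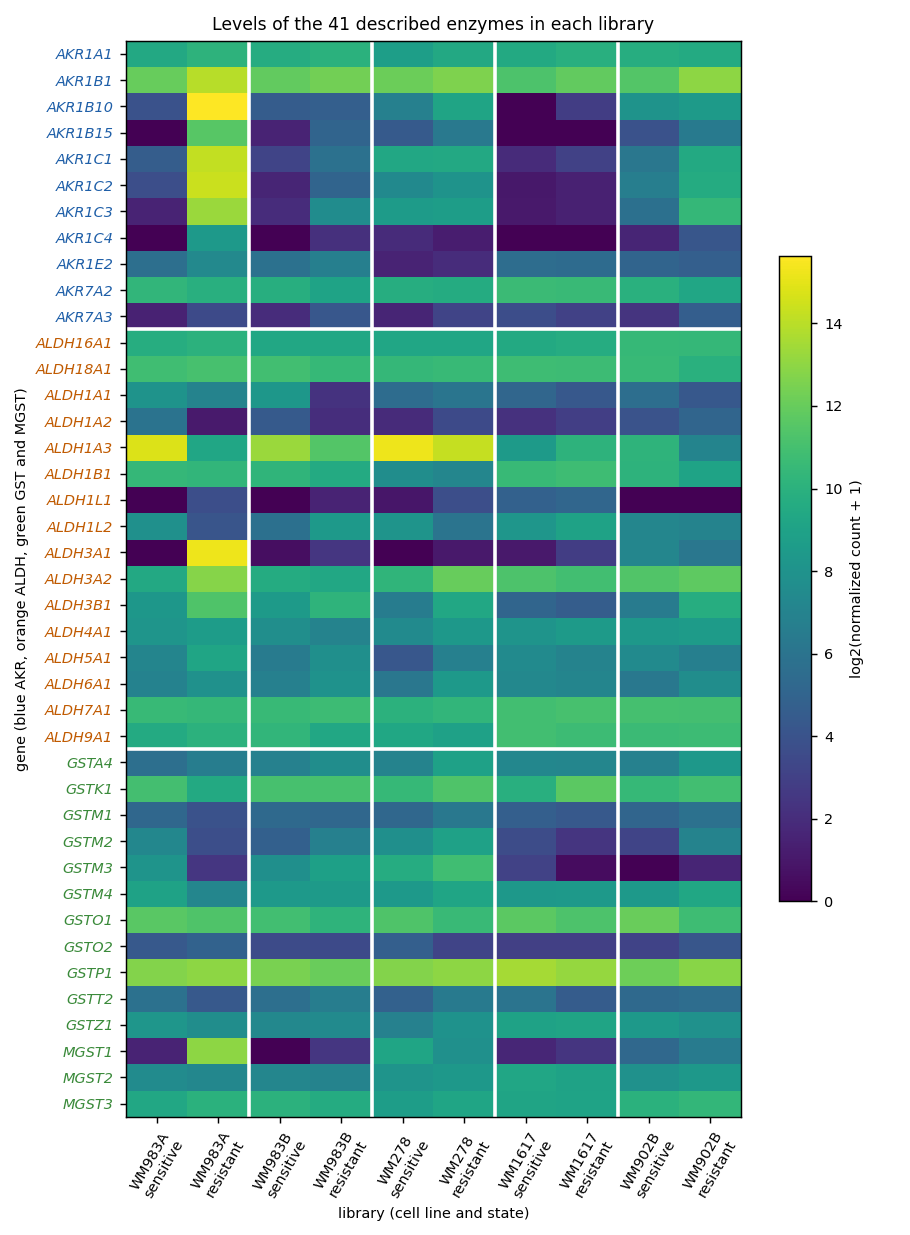
Heatmap of log2(normalized count + 1) for the 41 described enzymes (rows, AKR in blue, ALDH in orange, GST and MGST in green letters) in the 10 libraries (columns, sensitive beside resistant for each line). AKR1B10, AKR1C1, AKR1C2, AKR1C3, ALDH3A1 and MGST1 are bright in the resistant WM983A column and dark in its sensitive neighbour, and the GSTP1 row is bright in all 10.

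Line by line, the enzymes differed most in WM983A and least in WM1617. Each difference is the log2 of the normalized count in resistant cells over that in sensitive cells, after 1 was added to both. At least 2-fold higher in the resistant state were 15, 15, 16, 5 and 15 of the 41 enzymes. The same held for 19.9%, 19.1%, 14.2%, 3.67% and 17.8% of 19666 genes. At least 2-fold lower were 10, 3, 3, 3 and 4 enzymes, beside 20.9%, 11.9%, 8.22%, 5.91% and 13.6% of genes. Levels 8-fold or more higher were seen for 11, 3, 0, 0 and 4 enzymes, beside 6.14%, 3.37%, 1.79%, 0.122% and 3.31% of genes. Levels 8-fold or more lower were seen for 5, 1, 0, 0 and 1 enzymes, beside 6.37%, 1.73%, 0.946%, 0.651% and 2.73% of genes. None of the 11 described AKR genes was 2-fold lower in any line, and 9, 6, 3, 2 and 7 of them were 2-fold higher. However, AKR1C4 and AKR7A3 reached 20 counts only in a resistant library, so they could hardly be counted as lower. The counts of higher genes include AKR1C4 in WM983A, WM983B and WM902B, and AKR7A3 in those lines and in WM278. The 8 silent enzymes stayed under 20 counts everywhere and are not described further. These counts have no test, since each rests on 2 libraries.

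**Figure D3:**
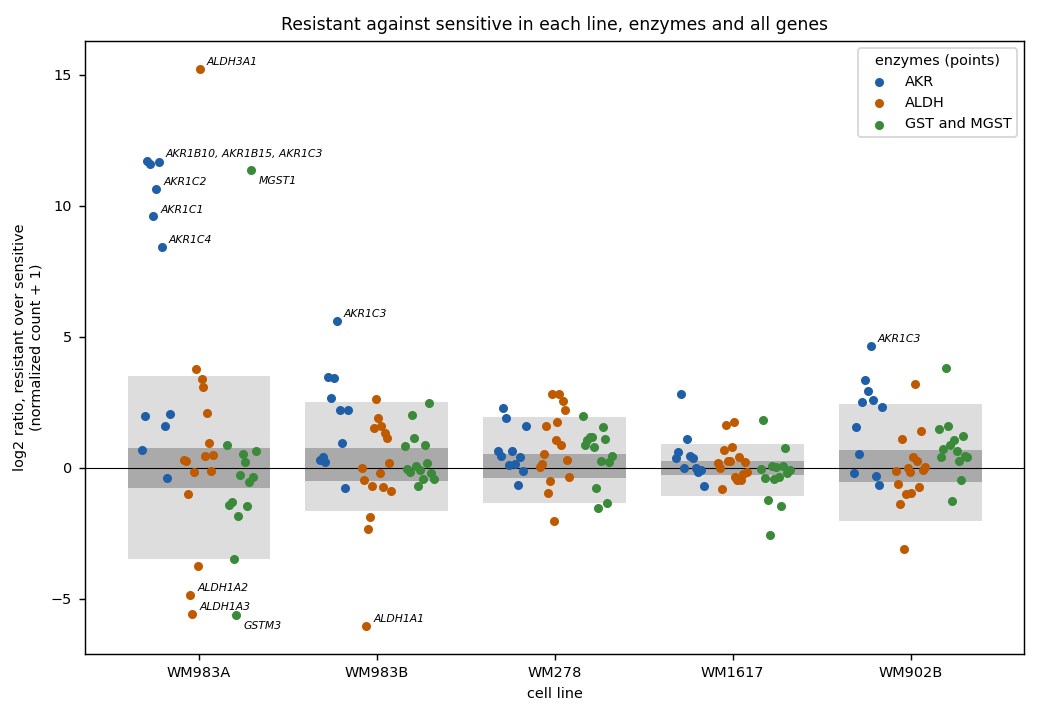
Log2 ratio of resistant to sensitive normalized counts (1 added to both) for the 41 enzymes in each cell line, as points coloured by family, over bands that hold the middle 50% (dark grey) and 90% (light grey) of 19666 genes. In WM983A 9 enzymes lie above the light band, led by ALDH3A1 at 15.2. In WM1617 most points lie close to 0, with 5 above and 3 below its narrow light band.

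Among the AKR genes, AKR1C1, AKR1C2, AKR1C3 and AKR1C4 encode hydroxysteroid dehydrogenases that also reduce lipid aldehydes and quinones. They lie in a cluster on chromosome 10 (AKR1C1 at chr10:4963253-4983283, AKR1C2 at chr10:4987775-5018031 on the other strand, AKR1C3 at chr10:5035354-5107686 and AKR1C4 at chr10:5195462-5218949, GRCh38). Normalized counts of AKR1C1 were 23, 8.07, 649, 2.73 and 71.4 in the sensitive and 18604, 56.9, 692, 6.97 and 730.3 in the resistant lines. Resistant WM983A cells thus had by far the most AKR1C1, with 808 times the level of their parent, while WM902B differed 10.2-fold and WM278, the sensitive line with the highest level, 1.07-fold. Normalized counts of AKR1C2 were 12.4, 2.02, 169, 0.971 and 104 in the sensitive and 21449, 31.2, 264, 1.71 and 792 in the resistant lines. The pattern was that of AKR1C1, with 1731-fold in WM983A and 7.63-fold in WM902B. Normalized counts of AKR1C3, also called prostaglandin F synthase, were 2, 3.03, 381, 1.09 and 53.9 in the sensitive and 9884, 196, 416, 1.73 and 1385 in the resistant lines. Resistant WM983B cells had 64.7 times the AKR1C3 level of their parent, a ratio against 3 counts whose 95% exact counting interval was 21.8 to 317. In WM983A the ratio against 2 counts was 4937 (interval 1366 to 40774), and in WM902B it was 25.7. AKR1C4, the liver member of the cluster, had 0 counts in sensitive WM983A cells and a normalized count of 345 in the resistant ones, at least 115-fold higher when 3 counts are taken as the floor, and at most 17.1 in the other 8 libraries. All 3 tested members were higher in resistant lines before adjustment, and the groups overlapped, because sensitive WM278 cells had more of each than resistant WM983B and WM1617 cells.

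The edgeR log2 fold change was 4.74 ± 2.07 (SE, unadjusted p = 0.0438, adjusted p = 0.689) for AKR1C1. For AKR1C2 it was 6.30 ± 2.31 (SE, unadjusted p = 0.0203, adjusted p = 0.645) and for AKR1C3 4.76 ± 2.03 (SE, unadjusted p = 0.0395, adjusted p = 0.687), all in edgeR's test. With the line as a block, edgeR gave 3.05 (unadjusted p = 0.073), 3.45 (unadjusted p = 0.0671) and 4.89 (unadjusted p = 0.038) before adjustment, so that only AKR1C3 stayed under 0.05. Without the resistant WM983A library, edgeR gave 1.30 (unadjusted p = 0.423), 2.24 (unadjusted p = 0.194) and 2.50 (unadjusted p = 0.188). With the block and without both WM983A libraries the 3 values were 1.91 (unadjusted p = 0.0291), 2.13 (unadjusted p = 0.0151) and 3.32 (unadjusted p = 0.0381) in edgeR's test. In WM902B, WM983B and WM983A the 4 genes together were 12.7, 21.9 and 1344 times higher in the resistant state, against 1.14 times in WM278.

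The members of the cluster are close copies, which bears on how their reads could be told apart. The coding sequences of AKR1C1 and AKR1C2, 969 bases each without the stop codon, were identical at 950 positions (98.0%), and those of AKR1C1 and AKR1C3 at 886 (91.4%). The longest run that AKR1C1 and AKR1C2 share without a difference covers positions 784 to 969, the last 186 coding bases, and is longer than a read of 75 bases. It lies at chr10:4972687-4977739 in AKR1C1, introns included, and is shown because reads from it fit both genes equally:
AKR1C1 and AKR1C2: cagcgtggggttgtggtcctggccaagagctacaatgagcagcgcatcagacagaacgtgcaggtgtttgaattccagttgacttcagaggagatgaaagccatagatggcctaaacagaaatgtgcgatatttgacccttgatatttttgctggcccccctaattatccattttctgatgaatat
Of all windows of 75 bases in the GENCODE transcripts of AKR1C1, 18.5% also occur in another gene, and 27.1% of those of AKR1C2, mostly in one another. The shares were 3.30% for AKR1C3 and 3.24% for AKR1C4. How such reads were assigned is not given in the sources used here, so the split between AKR1C1 and AKR1C2 is uncertain, whereas AKR1C3 and the sum of the cluster are less exposed. The summed counts of the 4 genes gave an edgeR log2 fold change of 5.22 (unadjusted p = 0.0337) before adjustment.

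The sequences before AKR1C1 and AKR1C2 were alike as well. RefSeq windows of 250 bases upstream of the start (GRCh38.p14) were compared at their best shift without gaps. AKR1C1 and AKR1C2 were identical at 245 of 246 bases, of windows with 162 and 166 bases in annotated exons. AKR1C1 matched the closer of 2 AKR1C3 windows at 140 of 241 bases and AKR1C4 at 113 of 237. For AKR1C1, AKR1C2 and AKR1C3 the stretches of these windows outside annotated exons are shown, because these 3 neighbours had their largest differences in the same lines:
AKR1C1 upstream (chr10:4963165-4963252, plus strand): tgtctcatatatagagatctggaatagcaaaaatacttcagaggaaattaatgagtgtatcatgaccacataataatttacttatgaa
AKR1C2 upstream (chr10:5004024-5004107, minus strand): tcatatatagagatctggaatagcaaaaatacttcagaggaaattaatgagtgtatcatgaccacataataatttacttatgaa
AKR1C3 upstream (chr10:5094164-5094413, plus strand): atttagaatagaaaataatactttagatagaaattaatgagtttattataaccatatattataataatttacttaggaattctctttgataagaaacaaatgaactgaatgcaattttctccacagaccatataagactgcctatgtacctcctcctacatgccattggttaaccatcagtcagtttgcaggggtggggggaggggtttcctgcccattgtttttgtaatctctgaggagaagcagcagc
The core of the antioxidant response element, TGACNNNGC on either strand, was not in the upstream windows of AKR1C1, AKR1C2, AKR1C3, AKR1C4 or MGST1. These letters being absent here says nothing about sites farther away.

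Of 34 described enzymes with a RefSeq window, 5 held the core, beside 13.2% of 27305 genes with windows of the same length. They were AKR7A2, GSTA4, GSTM1, GSTO1 and GSTP1. ALDH3A1, AKR1B10 and AKR1B15, which had some of the largest differences, were not searched. The sites are printed with up to 10 bases on either side and the core in capitals, because none of these 5 genes is in the AKR1C cluster:
GSTP1 (chr11:67583736-67583764, plus strand): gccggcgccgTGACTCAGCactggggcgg
GSTO1 (chr10:104254656-104254684, plus strand): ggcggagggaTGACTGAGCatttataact
GSTM1 (chr1:109687642-109687670, plus strand): ctgggcgcccTGACTTCGCtcccggaacc
GSTA4 (chr6:52995285-52995303, minus strand): ccgggaccgcTGACCTGGC
AKR7A2 (chr1:19312284-19312312, minus strand): ccgggtcagcTGACCGCGCgccaccgccc
The core began 66 bases before the start in GSTP1 and 9 bases before it in GSTA4. GSTO1 held it at 2 places and AKR7A2 at 3, of which 1 each is shown. The core of the site bound by the aryl hydrocarbon receptor, GCGTG on either strand, was in the windows of 13 of the 34 enzymes and of 36.2% of all genes. Such matches describe the letters only.

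The AKR1B genes are neighbours on chromosome 7. Normalized counts of AKR1B10, a reductase of retinal and lipid aldehydes, were 14.1, 22.1, 112, 0 and 261 in the sensitive and 50884, 25.9, 549, 6.1 and 373 in the resistant lines. In WM983A the ratio was 3597, in WM278 4.91 and in WM902B 1.43, and sensitive WM1617 cells had 0 counts. After GSTP1 this was the enzyme with the highest mean level per length, but only through resistant WM983A cells, where it reached 1880.1 CPM per kilobase of exon, against at most 20.3 in the other 9 libraries. Normalized counts of AKR1B15, its mitochondrial relative, were 0, 2, 20.9, 0 and 14.2 in the sensitive and 3109, 32.1, 80.2, 0 and 85 in the resistant lines. AKR1B15 was higher in 4 resistant lines and without counts in both WM1617 libraries. In WM983A it was at least 1035-fold higher against a floor of 3 counts, and in WM983B the ratio against 2 counts was 16 (interval 4.11 to 138). The longest coding run that AKR1B10 and AKR1B15 share is 116 bases, at chr7:134531909-134532024 in AKR1B10, and 5.98% of the windows of 75 bases of AKR1B10 recur in another gene. The edgeR log2 fold change was 7.0 ± 2.52 (SE, unadjusted p = 0.0185, adjusted p = 0.638) for AKR1B10. For AKR1B15 edgeR gave 6.46 ± 2.09 (SE, unadjusted p = 0.0109, adjusted p = 0.630). Without the resistant WM983A library, edgeR gave 1.54 (unadjusted p = 0.326) and 2.70 (unadjusted p = 0.0875), and with the block 2.35 (unadjusted p = 0.199) and 3.95 (unadjusted p = 0.055), all before adjustment.

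AKR1B1 is aldose reductase, which turns glucose into sorbitol and is present in most tissues. Normalized counts of AKR1B1 were 4074, 3840.0, 4451, 2426 and 2757 in the sensitive and 15862, 5075, 6151, 3706 and 8148 in the resistant lines. It was higher in all 5 resistant lines, by 3.89, 1.32, 1.38, 1.53 and 2.95 times, and only the resistant WM1617 value overlapped the sensitive range. All 5 lines were higher for 5.71% of 19666 genes. The edgeR log2 fold change was 1.16 ± 0.39 (SE, unadjusted p = 0.0131, adjusted p = 0.630), and the exact permutation p was 0.0317. When resistant WM983A cells were left out, edgeR gave 0.72 (unadjusted p = 0.031) for AKR1B1, under 2-fold.

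AKR7A2 and AKR7A3 reduce succinic semialdehyde and aflatoxin dialdehyde. AKR7A2 was among the 8 enzymes with the highest mean level per length and was lower in all 5 resistant lines, by 1.06 to 1.7 times, with an edgeR log2 fold change of -0.34 ± 0.32 (SE, unadjusted p = 0.311, adjusted p = 0.860). AKR7A3 had between 1.78 and 24.7 normalized counts, too few for the filter, and was 2-fold higher in 4 resistant lines but lower in WM1617, with no test because it reached 20 counts only in resistant WM902B cells, with 20.2% of its windows of 75 bases shared with other genes.

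**Figure D4:**
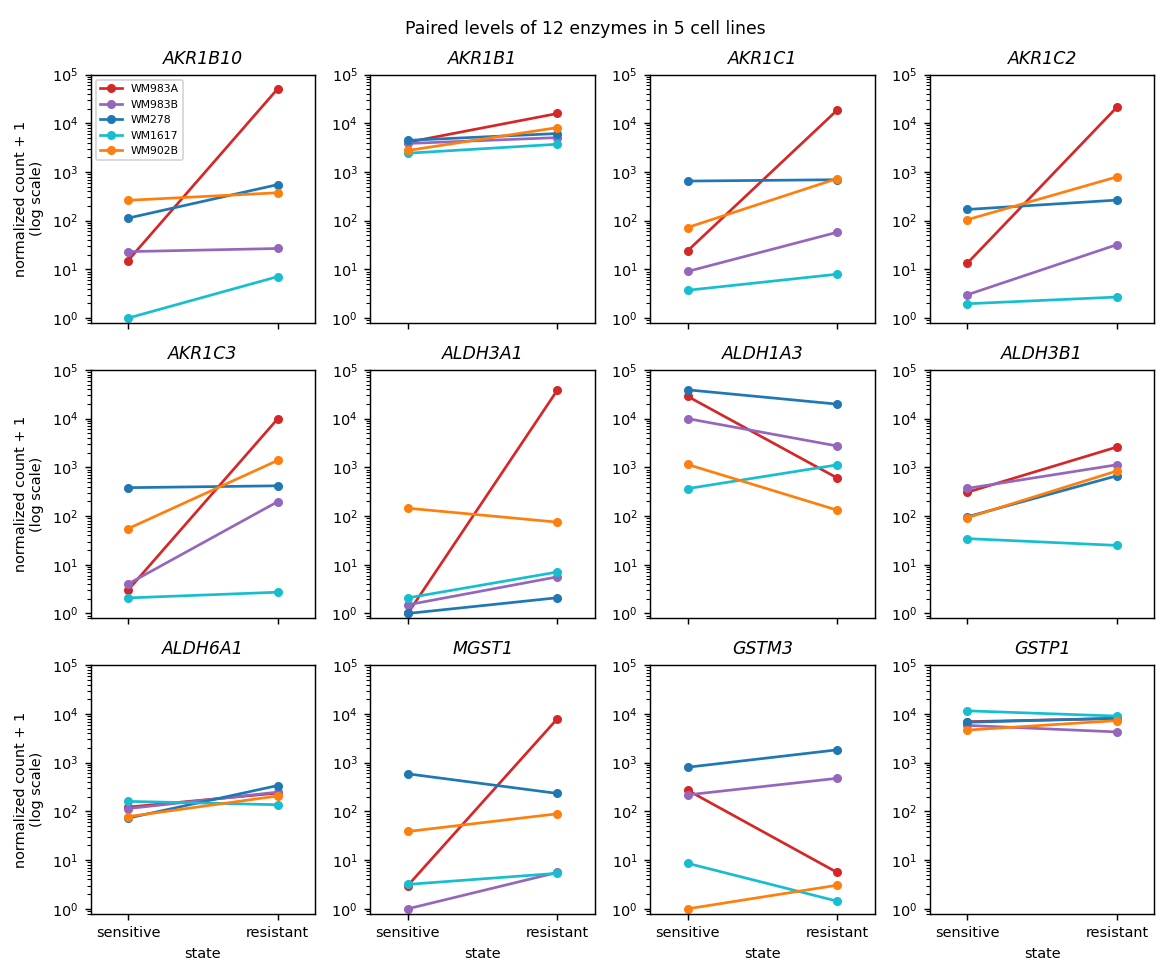
Normalized counts plus 1 (log scale) of 12 enzymes in the sensitive and resistant state, with a line joining both libraries of each cell line. AKR1B10, AKR1C1, AKR1C2, AKR1C3, ALDH3A1 and MGST1 are far higher in resistant WM983A cells (red), ALDH1A3 is lower in all resistant lines but WM1617 (light blue), and GSTP1 lies between 4272 and 11594 counts.

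Of the ALDH genes, ALDH3A1 had the largest difference in WM983A, where it ranked first of 19666 genes by its log2 ratio. The enzyme oxidises aldehydes from lipid peroxidation and is best known from the cornea. Normalized counts of ALDH3A1 were 0, 0.504, 0, 1.09 and 144 in the sensitive and 38634, 4.65, 1.1, 6.1 and 73.9 in the resistant lines. Sensitive WM983A cells had 0 counts and resistant ones 33532, at least 12866-fold more against a floor of 3 counts. WM902B went the other way, with 1.95 times less in resistant cells, and the other 3 lines had at most 7 counts in either state. The difference of the mean log2 levels, 3.81 on a scale with 1 added, had an exact permutation p of 0.198. Leaving out WM983A brought the difference to 0.95 (exact permutation p = 0.543) and leaving out WM902B to 5.00, a value that rests on resistant WM983A cells and is given without a test. No window of 75 bases of ALDH3A1 occurs in another gene. Of markers of corneal epithelium, KRT3 and KRT12 had at most 3 counts in any library while PAX6 was 4.13 times higher in resistant WM983A cells (9.17 to 37.9 normalized counts), within its range over all libraries of 3.05 to 92.5. Its part in the ALDH3A1 difference was not tested.

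The neighbouring gene ALDH3A2 encodes the fatty aldehyde dehydrogenase. Normalized counts of ALDH3A2 were 688, 779, 1199, 2415 and 2635 in the sensitive and 7192, 673, 4016, 1912 and 3484 in the resistant lines. It was 10.5 times higher in resistant WM983A and 3.35 times in resistant WM278 cells and slightly lower in both metastatic lines, with an edgeR log2 fold change of 1.17 ± 0.60 (SE, unadjusted p = 0.078, adjusted p = 0.732). ALDH3B1, which oxidises lipid-derived aldehydes at membranes, was higher in 4 of the 5 lines. Normalized counts of ALDH3B1 were 307, 369, 95.4, 33.4 and 91.3 in the sensitive and 2611, 1127, 670.1, 24 and 843 in the resistant lines. The exception, WM1617, also had the lowest level in both states. The edgeR log2 fold change was 2.57 ± 0.97 (SE, unadjusted p = 0.0233, adjusted p = 0.652), and with the block 2.18 (unadjusted p = 0.00785) before adjustment. Leaving out the resistant WM983A library brought it to 1.89 (unadjusted p = 0.0745), no longer under 0.05.

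ALDH6A1, the mitochondrial methylmalonate semialdehyde dehydrogenase of valine breakdown, had the smallest unadjusted edgeR p of the enzymes. Normalized counts of ALDH6A1 were 121, 113, 71.7, 159.6 and 77.1 in the sensitive and 237, 247, 338, 136 and 206 in the resistant lines. All but WM1617 had about 2-fold or more in the resistant state, most in WM278 (4.72-fold). The edgeR log2 fold change was 1.11 ± 0.33 (SE, unadjusted p = 0.00655, adjusted p = 0.630), and the exact permutation p was 0.0159. It kept an unadjusted p of at most 0.05 and 2-fold in edgeR's test without WM983A, 1.14 (unadjusted p = 0.0202), and fell under 2-fold without WM278, 0.83 (unadjusted p = 0.0385).

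Of the retinal dehydrogenases, ALDH1A3 and ALDH1A1 were lower in 4 of the 5 resistant lines and ALDH1A2 in 2, without passing the test over all 5 lines. ALDH1A3 makes retinoic acid and had the highest mean level per length of the ALDH genes. Normalized counts of ALDH1A3 were 28709, 9994, 38989.6, 364 and 1144 in the sensitive and 603, 2741, 19813, 1122 and 131 in the resistant lines. Resistant cells had 47.6, 3.65, 1.97 and 8.72 times less in WM983A, WM983B, WM278 and WM902B, and 3.08 times more in WM1617. The groups overlapped widely, since sensitive lines alone ranged from 364 to 38989.6, and the edgeR log2 fold change was -1.69 ± 1.41 (SE, unadjusted p = 0.255, adjusted p = 0.838). Its exact permutation p was 0.294. It was called lower by edgeR without WM278, -3.10 (unadjusted p = 0.0499), and by DESeq2 with the block, -1.97 (unadjusted p = 0.00708), in both before adjustment. Normalized counts of ALDH1A1, the cytosolic form whose activity is often used to mark stem-like cells, were 259, 312, 45.5, 34.7 and 49.2 in the sensitive and 128, 3.8, 66.4, 19.2 and 18.5 in the resistant lines. The level was 82 times lower in resistant WM983B cells, the 19th largest decrease of 19666 genes in that line, and higher only in WM278. EdgeR gave -1.56 ± 0.94 (SE, unadjusted p = 0.126, adjusted p = 0.771), and without the resistant WM983A library -2.37 (unadjusted p = 0.0363) before adjustment. ALDH1A2, the embryonic form, had 61.1 normalized counts in sensitive and 1.15 in resistant WM983A cells, 53 times less against 1 count (interval 9.16 to 2127), and 15 against 33.3 in WM902B, the opposite direction. It was also lower in resistant WM983B cells (20.3 against 3.22) and higher in WM278 and WM1617, and edgeR gave -0.93 ± 0.96 (SE, unadjusted p = 0.357, adjusted p = 0.877).

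ALDH1L1 and ALDH1L2 are the formyltetrahydrofolate dehydrogenases of the cytosol and the mitochondria. Normalized counts of ALDH1L2 were 232, 54.1, 269.7, 294 and 141 in the sensitive and 16.1, 337, 64.5, 514 and 125 in the resistant lines. It was 14.4 times lower in resistant WM983A and 4.18 times lower in resistant WM278 cells, 6.22 times higher in WM983B and 1.75 times higher in WM1617. The directions thus split within each pair of lines from the same patient, and edgeR gave 0.10 ± 0.78 (SE, unadjusted p = 0.904, adjusted p = 0.990) over all 5. ALDH1L1 had 0, 0, 0.95, 28.4 and 0 in the sensitive and 12.5, 1.9, 12.6, 34.7 and 0 in the resistant lines. It differed most in WM983A, where it was at least 4.17-fold higher against a floor of 3 counts, and in WM278 the ratio was 13.3 against 1 count (interval 1.98 to 560.3), and no line but WM1617 had over 3 counts in the sensitive state. The remaining ALDH genes (ALDH16A1, ALDH18A1, ALDH1B1, ALDH4A1, ALDH5A1, ALDH7A1 and ALDH9A1) had edgeR log2 fold changes from -0.27 to 0.95, and only ALDH5A1 (3 lines higher) and ALDH1B1 (1 line lower) were 2-fold apart in any line.

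GSTP1, the pi-class transferase that is abundant in most tumours, had the highest mean level per length of all 41 enzymes, 269.7 CPM per kilobase of exon. It was followed by AKR1B10, ALDH1A3, AKR1B1, GSTO1, ALDH3A1, AKR7A2 and GSTK1. In the sensitive state alone GSTP1 lay above the rest except in WM983A and WM278, where ALDH1A3 was higher. Normalized counts of GSTP1 were 6939, 5813, 6749.7, 11594 and 4661 in the sensitive and 8080.2, 4272, 8167, 9038 and 7311 in the resistant lines. No line differed by more than 1.57 times, and the direction was not shared, with 3 resistant lines higher and 2 lower. The edgeR log2 fold change was 0.05 ± 0.29 (SE, unadjusted p = 0.864, adjusted p = 0.985).

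GSTO1, an omega-class enzyme that reduces thiol adducts, was lower in all 5 resistant lines, as were 5.02% of 19666 genes. Normalized counts of GSTO1 were 3128, 1884, 2621, 3307 and 4211 in the sensitive and 2575, 1160.0, 1546, 2485 and 1765 in the resistant lines. The ratio ran from 1.21 times less in WM983A to 2.39 times less in WM902B, and the groups overlapped. EdgeR gave a log2 fold change of -0.66 ± 0.29 (SE, unadjusted p = 0.0419, adjusted p = 0.689), under 2-fold, and the exact permutation p was 0.0476. GSTA4, which conjugates the lipid peroxidation product hydroxynonenal, was the only GST gene called as higher. Normalized counts of GSTA4 were 52, 116, 124, 149.9 and 115 in the sensitive and 97.2, 205, 499, 144 and 319.9 in the resistant lines. It was higher in all resistant lines but WM1617, most in WM278 (4.01-fold), with an edgeR log2 fold change of 1.19 ± 0.46 (SE, unadjusted p = 0.0273, adjusted p = 0.669). EdgeR gave 1.39 (unadjusted p = 0.00902) when the resistant WM983A library was left out. The call was lost without WM983B, 1.27 (unadjusted p = 0.0577), without WM278, 0.84 (unadjusted p = 0.109), and without WM902B, 1.11 (unadjusted p = 0.0873), in edgeR's test. Normalized counts of GSTK1, the kappa-class enzyme of mitochondria and peroxisomes, were 1979, 2189, 1397, 943 and 1406 in the sensitive and 730.5, 2148, 2561, 3329.9 and 1878 in the resistant lines. It was 2.71 times lower in resistant WM983A and 3.53 times higher in resistant WM1617 cells, and edgeR gave 0.43 ± 0.37 (SE, unadjusted p = 0.271, adjusted p = 0.850).

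The mu-class genes on chromosome 1, which conjugate many drugs and carcinogens, differed in opposite directions between lines. Normalized counts of GSTM3 were 271, 217, 804, 7.6 and 0 in the sensitive and 4.57, 477, 1833, 0.436 and 2.05 in the resistant lines. It was 59.3 times lower in resistant WM983A cells, with 4 counts left (interval 22.7 to 218), and 2.19 and 2.28 times higher in WM983B and WM278, the resistant lines with most of it. Normalized counts of GSTM2 were 150.0, 26.3, 217, 11.5 and 8.14 in the sensitive and 12.7, 109, 486, 4.36 and 127 in the resistant lines. GSTM2 was 11.8 times lower in WM983A, 15.6 times higher in WM902B and 4.15 times higher in WM983B. EdgeR gave 0.84 ± 1.21 (SE, unadjusted p = 0.5, adjusted p = 0.921) for GSTM2 and 0.84 ± 1.91 (SE, unadjusted p = 0.669, adjusted p = 0.955) for GSTM3. With the block, and with limma, the GSTM3 value turned negative. Normalized counts of GSTM1, which many people lack through a deletion, were 36.7, 40.1, 35.6, 25.8 and 33.5 in the sensitive and 14.2, 35.8, 75.6, 19.3 and 55.5 in the resistant lines. Its levels were low in all libraries, and 36.5% of its windows of 75 bases occur in other genes, mostly GSTM2, which overlaps it on the same strand, so counts of GSTM1 do not show that its own transcript was present. EdgeR gave 0.22 ± 0.45 (SE, unadjusted p = 0.634, adjusted p = 0.949) for GSTM1. GSTT1, which is also often deleted, was not analysed here. The sum of GSTM1 to GSTM4 was 5.58 times lower in resistant WM983A cells and 2.14 and 2.12 times higher in WM278 and WM902B.

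MGST1, a membrane-bound transferase and peroxidase of the endoplasmic reticulum and mitochondria, had the largest difference of the GST group in a single line. Normalized counts of MGST1 were 2, 0, 589, 2.17 and 37.7 in the sensitive and 8005, 4.58, 233, 4.36 and 88.3 in the resistant lines. In WM983A 2 counts stood against 6948, a ratio of 3999 (interval 1107 to 33028), whereas WM278, the sensitive line with most MGST1, had 2.53 times less in the resistant state and WM902B 2.34 times more. Across the 5 lines edgeR gave 3.73 ± 2.27 (SE, unadjusted p = 0.129, adjusted p = 0.773). Without the resistant WM983A library the direction turned, -0.61 (unadjusted p = 0.753) before adjustment in edgeR's test. The other GST genes (GSTM4, GSTO2, GSTT2, GSTZ1, MGST2 and MGST3) had edgeR log2 fold changes of -0.00416 (GSTO2) to 0.20 (MGST3). Single lines still differed by 2-fold or more. In the resistant state GSTM4 was 3.61 times lower in WM983A, and GSTZ1 was 2.18 times higher in WM278. GSTT2 was 2.82 and 2.85 times lower in WM983A and WM1617 and 3.01 times higher in WM278. GSTO2, with few counts, was 3.09 times lower in WM278 and 2.21 times higher in WM902B. For GSTT2 80.0% of the windows of 75 bases occur in its copy GSTT2B as well. AKR1A1 and AKR1E2, the remaining AKR genes, had edgeR log2 fold changes of 0.36 and 0.85, and AKR1E2 was 3.1 times higher in resistant WM983A cells.

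Genes that work with these enzymes were read from lists of NRF2 targets, glutathione supply and others. The lists were written with earlier results of these data known, so their counts beside the shares of all genes are no test of the lists. Of the NRF2 targets, ABCC1, ABCC3, FTL and TXNRD1 were already among the upregulated genes that the study reported. Of 20 NRF2 targets that are not ALDH, AKR or GST genes, 10 were higher and 0 lower at an unadjusted p of at most 0.05 and 2-fold in edgeR's test, beside 3.53% and 0.885% of all genes, and 0 passed adjustment. With DESeq2's Wald test 3 passed adjustment, beside 0.613% of genes, and 6 with the block, beside 1.56%. Their median log2 fold change was 1.25, beside 0.03 over all genes. With the block edgeR called 8 higher, beside 3.49%, and without both WM983A libraries 4 (ABCC1, ABCC2, EPHX1 and FTL), beside 2.71%. FTL, the ferritin light chain, had an edgeR log2 fold change of 2.32 ± 0.64 (SE, unadjusted p = 0.00439, adjusted p = 0.630). ABCC2 and ABCC3, pumps that export glutathione conjugates, had 3.88 and 3.78, and normalized counts of ABCC3 from sensitive to resistant were 50.2 to 6713 in WM983A, 26.5 to 2101 in WM983B and 43.3 to 2266 in WM902B. The others, ABCC1, EPHX1, FTH1, HMOX1, OSGIN1, TKT and TXNRD1, had 1.05 (FTH1) to 1.90 (EPHX1, the microsomal epoxide hydrolase). At least 2-fold higher were 14, 8, 6, 2 and 15 of the 20, beside 19.9%, 19.1%, 14.2%, 3.67% and 17.8% of all genes. In WM902B, with 15 such targets, AKR1C1, AKR1C2, AKR1C3 and ALDH3B1 were 10.2, 7.63, 25.7 and 9.23 times higher in the resistant state. MGST1 was 2.34 times higher there and ALDH3A1 1.95 times lower. A link between these targets and the enzymes was not tested.

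Of 11 tested genes of glutathione supply, 3 were higher and 0 lower, beside 3.53% and 0.885% of all genes, namely GCLC, the catalytic subunit of the first step of glutathione synthesis (2.18), PGD (1.76), which makes NADPH, and GGT1 (5.29), which breaks glutathione down outside the cell. With the block, and without the resistant or both WM983A libraries, edgeR called 0 of them before adjustment. Normalized counts of GCLC from sensitive to resistant were 383 to 8537 in WM983A and 554 to 2377 in WM902B, and 789 to 679 in WM278. The median log2 fold change over the list was 0.85. Of 4 glutathione peroxidases tested, GPX3 was higher (3.77) before adjustment, and no longer without the resistant or both WM983A libraries. Among 7 regulators of NRF2, MAFF was lower (-1.33), and NRF2 itself (NFE2L2, 0.36) and KEAP1 (0.35) did not pass. No gene passed among 6 tested of the aryl hydrocarbon receptor axis, 9 of retinoid metabolism, 11 other conjugating or oxidising enzymes and 5 relatives outside the symbol rule, beside 4.41% of all genes in either direction. With the block CYP26B1, which degrades retinoic acid, and NNMT passed before adjustment only (edgeR adjusted p = 0.467 and 0.466), and NNMT no longer did without both WM983A libraries. ALDH2, the main mitochondrial acetaldehyde dehydrogenase and one of those relatives, had 0 counts in sensitive and 1625 normalized counts in resistant WM983A cells, at least 541-fold more against 3 counts, and at most 6.37 elsewhere.

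Several of these genes differed by 8-fold or more in a single line, with no test. In WM983A the largest differences in glutathione supply were those of GGT1 (364-fold higher), OPLAH (at least 104-fold, from 0 counts), GGT5 (at least 40.8-fold, from 0 counts) and GCLC (22.3-fold). GPX2, the glutathione peroxidase of the gut, was 262 times higher there against 2 counts (interval 84 to 2525). Resistant WM902B cells had a different set, with the cystine transporter SLC7A11 19.8 times and sulfiredoxin (SRXN1) 14.9 times higher. Of the genes switched on by the aryl hydrocarbon receptor, CYP1B1 was 478 times higher and CYP1A1 42 times lower in resistant WM983A cells. Among conjugating enzymes, the methyltransferase NNMT was 36.2 times higher in WM983A and 28 times in WM983B, and the acetyltransferase NAT1 had 112 normalized counts in sensitive and 0 in resistant WM983A cells, at least 32.3-fold lower.

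**Figure D5:**
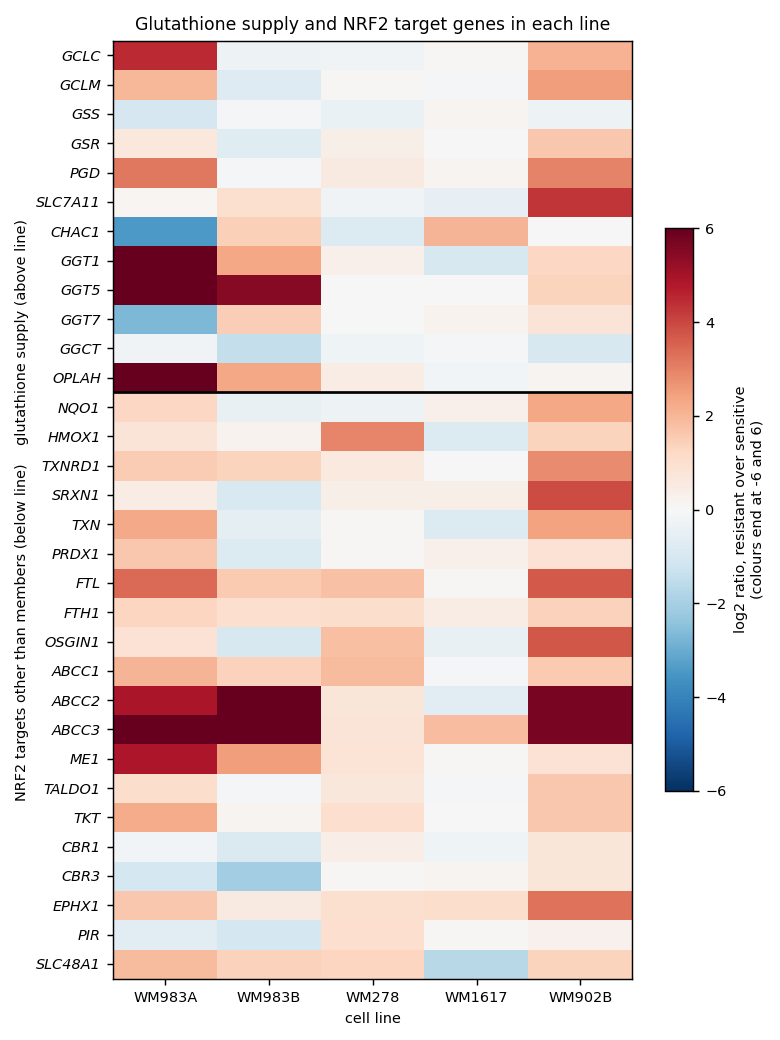
Log2 ratio of resistant to sensitive normalized counts (red higher, blue lower, colours ending at -6 and 6) of 12 glutathione supply genes and 20 NRF2 targets in the 5 cell lines. WM983A and WM902B are red over most rows, with 14 and 15 NRF2 targets at least 2-fold higher, and WM1617 is pale, with 2.

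The cells were checked against marker genes. The summed level of 7 melanocytic markers (MITF, SOX10, PMEL, MLANA, TYR, TYRP1 and DCT) went from 44261 to 1292 normalized counts in WM983A, 27429.9 to 1997 in WM983B and 41551 to 3518 in WM902B. It went from 5092 to 4523 in WM278 and 67778 to 65803 in WM1617, so the 3 lines with large AKR1C differences also had far less of the melanocytic markers in the resistant state. All 7 markers were at least 2-fold lower in WM983A, 6 in WM983B and 5 in WM902B, beside 20.9%, 11.9% and 13.6% of all genes. SOX10 was at 97.1 in resistant WM983A cells, against 5202 in their parent. Of these markers edgeR called TYRP1 lower before adjustment (-5.21), although it was higher in resistant WM278 and WM902B cells. With the block TYRP1 was at -1.71 (unadjusted p = 0.452), and TYR was called instead, at -3.92 (unadjusted p = 0.0292), in edgeR's test. Markers of dedifferentiated melanoma (AXL, NGFR, EGFR and SOX9) each went both ways between lines. EGFR was 48.8, 9.09 and 13.3 times higher in WM983A, WM983B and WM902B and lower in the other 2. NGFR was 136, 15.4 and 219 times lower in the same 3 lines and higher in the other 2. EdgeR called NGFR lower before adjustment (-5.93, unadjusted p = 0.00588), and not with the block (-3.52, unadjusted p = 0.198). The summed level of 5 fibroblast markers went from 989 to 45.9 in WM983A and from 615 to 6668 in WM902B, the lowest and highest of the resistant lines. Over sensitive lines it was 165 to 1222. Of these markers edgeR called PDGFRB higher before adjustment (4.55, unadjusted p = 0.0178), and not with the block (2.89, unadjusted p = 0.0568). PDGFRB was higher in 4 lines, by 46.2 times in WM983B and 31.3 times in WM902B, and lower in WM983A. PDGFRA was 49.3 times higher in WM902B and higher in 2 lines, lower in 3. Of keratinocyte markers KRT1 had 0 counts in every library, and KRT5 and KRT14 at most 17, while KRT10 was expressed in all libraries at up to 1291 normalized counts and TP63 went from 17.1 to 293 in WM983B. ALB, APOA1 and TTR of hepatocytes, CD3E of T cells and CDH5 of endothelium had at most 6 counts in any library. Other genes of those lists were detected, with SERPINA1 at up to 124 normalized counts and from 2.02 to 37.1 in WM983B, CD68 at up to 1186, PECAM1 at up to 30.6 and VWF at up to 31. What part the shifts of these markers had in the enzyme differences was not tested.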

How the data were processed

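Messenger RNA of 10 libraries was sequenced once each, as single-end reads of 75 bases from a poly(A) preparation. The authors aligned the reads with HISAT2 to GRCh38 and deposited expected counts per gene, made in StrandNGS. They also deposited log2 values of the resistant over the sensitive library after DESeq normalization. The versions of these tools, the annotation, the use of strand and the handling of reads shared by several genes are not given in the sources used here. Of the values above 0, 24.1% were whole within 1e-06, and all were rounded to whole numbers for count models. In the sensitive WM983B column 455 cells that a spreadsheet had turned into dates were rebuilt from the deposited log2 values (largest deviation 1.5e-06), and 0 of them belonged to the enzymes. The deposited log2 values served otherwise only as an alternative. Library totals ran from 13693922 to 18033247 counts, and counting intervals (exact, 95%) and floors of 3 counts cover counting error only.

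Samples were grouped by the labels. Counts were scaled by TMM and tested with edgeR 4.0.16 (glmQLFit and glmQLFTest, filterByExpr) in R 4.3.3 over 17288 genes with Benjamini-Hochberg adjustment. The cell line, which ties each resistant library to its parent, entered as a block in the paired fit. Deviations from the state means correlated within lines at -0.064 (WM983A), 0.540 (WM983B), 0.675 (WM278), 0.670 (WM1617) and 0.380 (WM902B). DESeq2 1.42.0, limma 3.58.1, other filters, other scaling, summed paralogs and leaving out each line were alternatives. Permutations and intervals were computed in Python 3.11.15 with scipy 1.17.1, tables with pandas 2.3.3 and numpy 2.4.6, and plots with matplotlib 3.10.9. In counts simulated for 17288 genes at the observed spread, edgeR recovered 165 of 199 changed genes with 7 false calls. With the block edgeR recovered 132 of the 199 with 0 false calls, and DESeq2 without it recovered 186 with 55 false calls. The simulated libraries held no difference between lines, so they cannot compare fits with and without the block. The changed genes were all 8-fold apart and had high mean counts, so smaller or less counted changes were not covered. What share of the real differences between these sensitive and resistant lines the fits would recover was not tested.

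The enzymes and the gene lists were chosen with earlier results of these data known. Named with values were the enzymes with an unadjusted p of at most 0.05 in either edgeR fit, the marker genes ALDH3A1, AKR1C1 and GSTP1, the 8 with the highest mean level per length, those at least 8-fold apart in a line, and GSTM1. From the other gene lists, genes called by edgeR or 8-fold apart in a line were named, at most 4 a list and line. AKR7A3, NFE2L2, KEAP1, SOX10 and CYP26B1 were named after their values were seen. Sequences came from RefSeq (GRCh38.p14) and GENCODE, and windows before the start of AKR1B10, AKR1B15, ALDH16A1, ALDH1L2, ALDH3A1, GSTT2 and MGST2 were not used here. Of the gene lists, 1 gene is not reported here.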

Additional observations from a re-analysis of the deposited data

Results flagged for a closer look

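In 82 groups of 5 libraries, 9 enzymes had 1 library far from the other 4 on the log2 scale, by Dixon's test at the 95% level. For normally spread values chance alone gives this in about 1 group of 20, and levels with few counts need not spread so. How many of all genes would be flagged was not computed, so the number flagged is not read as a result about the enzymes. Among sensitive lines, WM278 was lowest for AKR1E2 with 1.90 normalized counts, against 32.3 in the next library, and for ALDH1B1 with 205, against 1096. Sensitive WM1617 was highest for ALDH1L1 with 28.4, against 0.95, and sensitive WM902B was highest for ALDH3A1 with 144, against 1.09. Sensitive WM983A was lowest for GSTA4 with 52.0, against 115, and highest for GSTM4 with 516, against 351. Among resistant lines, WM983B was lowest for ALDH4A1 with 128, against 317, and for GSTP1 with 4272, against 7311. Resistant WM1617 was highest for GSTZ1 with 549, against 248. Resistant WM983A was the distant library in 0 of the 9. The test sets the gap against the whole range of the 5 values, so it misses a far library when the others also spread widely. ALDH3A1, with 38634 in resistant WM983A cells against 73.9 in the next resistant library, was not flagged.

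For 4 enzymes every line from a primary tumour differed one way and both metastatic lines the other way. This difference between origins was not tested. The share of all genes that split this way was not computed, so the count is not read as a result about the enzymes. The mean log2 ratio of resistant over sensitive for ALDH1L2 was -1.99 in the primary and 1.71 in the metastatic lines, a gap of -3.70. For ALDH3A2 it was 1.84 and -0.27 (gap 2.12), for GSTP1 0.38 and -0.40 (gap 0.78), and for MGST3 0.50 and -0.26 (gap 0.76).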

How the results depend on the processing

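Of 345 values of single enzymes under other settings, 277 kept their direction and their side of the threshold, 44 lost a call, 5 gained one and 19, in 6 enzymes, turned. The count of 9 enzymes called before adjustment became 5 with the replicate block, 5 with DESeq2's Wald test, 3 with limma and 4 with at least 10 counts in every library, which tests fewer genes. It lay between 2 (without WM983A) and 9 (without WM1617) when 1 line was left out, with 4 without WM902B, and was 3 without the resistant WM983A library. After adjustment the count was 0 except with DESeq2 and the block, an alternative chosen after seeing the data, where it was 2. With 1.5-fold in place of 2-fold, the enzymes lower in the resistant state numbered 8 (WM983B), 6 (WM278), 5 (WM1617) and 8 (WM902B) of 41, beside 22.8%, 17.6%, 12.3% and 23.9% of all genes, and 9 were higher in WM1617, beside 9.83%. With 5 in place of 1 added to both counts, 3 were higher in WM1617, and by the deposited log2 ratios 5 were lower in WM278.

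The enzymes that turned had log2 fold changes near 0 or lines of opposite direction. ALDH1A2 became 0.33 without WM983A, with and without the block. ALDH1L2 became -0.45 with the block, -0.51 with limma, -0.37 without WM983B, -0.36 without WM1617, and -0.47 with the block in DESeq2 and in edgeR without a filter. GSTM1 became -0.0244 with limma, -0.12 without WM278 and -0.0312 with the block and no filter. GSTM3 became -0.58 with the block, -0.95 with limma, -0.53 with the block in DESeq2 and -0.61 with the block and no filter. GSTP1 became -0.00342 without WM278 and -0.0604 without WM902B, and MGST1 -0.93 without WM983A and -0.61 without its resistant library. The fits that join the block with another setting were chosen after seeing the data. Apart from the calls given, the cause of these shifts was not tested. Genes with few counts in sensitive cells, such as ALDH3A1 and AKR1C4, could not be fitted under the filter, and their ratios are bounded by 3 counts.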
